A study of Rattus norvegicus with 6 samples.

Results

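The seed family of miR-92, miR-25, miR-363 and miR-32 is a group of miRNAs that begin with nearly the same bases and are made from hairpins at several places in the rat genome. Its members were taken as every name in the deposited table that belongs to the miR-92a, miR-92b, miR-25, miR-363 or miR-32 hairpins, whichever arm of the hairpin it comes from. This gave 10 of the 693 miRNA names listed. Small RNA was sequenced from lung tissue of male Sprague-Dawley rats, 7 to 8 weeks old, with 3 samples in the ischemia reperfusion (IR) group, 3 in the sham group and 1 library per sample. In IR rats the left hilum was clamped for 45 min and blood flow was then restored, and sham rats, labelled as controls, had the chest opened under the same urethane anesthesia and ventilation with no vessel clamped. The sources used here do not give the length of reperfusion or say which lung was taken. The study compared the groups to find miRNAs whose level differs after IR.

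A miRNA is cut from a hairpin precursor, and usually the product of a single arm is loaded into the silencing complex. It recognizes target mRNAs mainly through its seed, the bases 2 to 8 from its 5′ end, so that miRNAs with the same seed can share many targets. A known target of this family is the pro-apoptotic gene Bcl2l11, and miR-92a is also known from endothelial cells, where it restrains vessel growth, and from red blood cells.

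All 10 names were found among the mature rat miRNAs of RefSeq. In 5 of them bases 2 to 8 read AUUGCAC, and these are the only 5 of the 693 mature names in that RefSeq set with this seed (0.722%). They are shown because they are the arms that define the family, with the seed in capitals.
rno-miR-92a-3p: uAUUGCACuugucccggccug
rno-miR-92b-3p: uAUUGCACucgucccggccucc
rno-miR-25-3p: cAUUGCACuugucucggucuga
rno-miR-363-3p: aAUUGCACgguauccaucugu
rno-miR-32-5p: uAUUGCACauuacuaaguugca
The other 5 names are the opposite arms, and none of them shares its seed with another. Those of miR-32 and of the miR-92a-1 hairpin are shown, again with bases 2 to 8 in capitals. The first comes from the same hairpin as miR-32-5p, and the second marks a single miR-92a gene.
rno-miR-32-3p: gCAAUUUAgugugugugauauu
rno-miR-92a-1-5p: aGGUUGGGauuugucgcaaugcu
Thus the arm of miR-32 that carries the family seed is miR-32-5p and not miR-32-3p.

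Beyond the seed the 5 arms fell into closer and more distant relatives. Compared base by base from the 5′ end without gaps, miR-92a-3p and miR-92b-3p were identical at 19 of 21 positions, differing by U10C and G21C (the base of miR-92a-3p first, positions counted from 1 at the 5′ end). miR-92a-3p and miR-25-3p were identical at 18 of 21 positions, differing by U1C, C14U and C18U. miR-363-3p and miR-32-5p matched miR-92a-3p at 10 and 11 of 21 positions, so that after the seed they were largely different sequences. Reads of miR-92a-3p and miR-92b-3p could be assigned to each other if the mapping allowed mismatches, and the sources used here do not state the mismatch rule. Members with at least 5 mean reads, thus all but miR-363-5p, were checked for counts shared with another name. No other listed name had counts equal to theirs within 5% or 2 reads in every library. This check could not show reads shared only in part.

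The hairpins lie on 5 chromosomes of the RefSeq build GRCr8, which is the source of the sequences and need not be the build that the authors used. The same mature miR-92a-3p is encoded at chr15:98588602-98588622 on the plus strand (Mir92a1) and at chrX:137342945-137342965 on the minus strand (Mir92a2), so its reads cannot be divided between these genes. Mir92a1 closes the miR-17-92 cluster, with 5 other miRNA genes within 10 kb. Mir92a2 lies beside miR-363-3p (chrX:137342788-137342808, minus strand) in the cluster of miR-106a and miR-363. miR-25-3p (chr12:22156652-22156673, minus strand) lies in the miR-106b-25 cluster, inside the gene of the replication helicase subunit Mcm7. miR-32-5p (chr5:76391328-76391349, minus strand) lies inside Tmem245, and miR-92b-3p (chr2:176931663-176931684, minus strand) overlaps no other gene. Both of the latter have 0 miRNA genes within 10 kb.

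The libraries held 3775663 to 11248166 reads assigned to miRNAs, so that 3 reads stood for 0.267 to 0.795 TPM, and intervals from reads cover counting error only. Levels are given as CPM, the reads per 1000000 after TMM scaling of the libraries, and errors are the SD among 3 libraries. 1 library stood apart in its make-up, since miR-21-5p took 24.2% of the reads of sham replicate 3 and 9.66% to 13.5% of the others. IR was compared with sham by edgeR's quasi-likelihood test on the counts of 418 miRNAs with enough reads, and an adjusted p (Benjamini-Hochberg over the 418) under 0.05 was called. The study calls the samples biological replicates without saying that each is a different rat, and a p-value measures the spread between them. In bulk lung, fewer cells of a type and less of a miRNA per cell cannot be told apart.

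The family was carried by miR-92a-3p and miR-25-3p. In sham lung miR-92a-3p stood at 1172 ± 128 CPM and miR-25-3p at 1101 ± 143 (SD, n = 3 each), and their ranges of 1030 to 1276 and 941 to 1215 overlapped. By mean CPM over all libraries they ranked 70 and 65 of the 418 tested miRNAs. More than 10-fold below came miR-92b-3p, miR-363-3p and miR-32-5p, with sham means of 83.1 ± 36.4, 67.5 ± 25.3 and 63.1 ± 13.8 CPM and overlapping ranges. The opposite arms were rare, between 0.109 CPM for miR-363-5p and 3.78 for miR-92a-1-5p in sham. In sham replicate 1 miR-25-3p lay below miR-92a-3p (941 against 1276 CPM). It lay above in sham replicate 2 (1146 against 1030) and was nearly equal in sham replicate 3 (1215 against 1212). After IR miR-25-3p, at 896 to 1090 CPM, lay above miR-92a-3p, at 695 to 733, in every library. Among the lesser arms after IR, miR-363-3p (28.9 to 38.8 CPM) lay below miR-32-5p (46.5 to 58.7) and miR-92b-3p (48.7 to 81.1), which overlapped each other. These are levels of reads with no length term, and adapters join some sequences better than others, so the order of arms is that of the libraries.

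**Figure D1:**
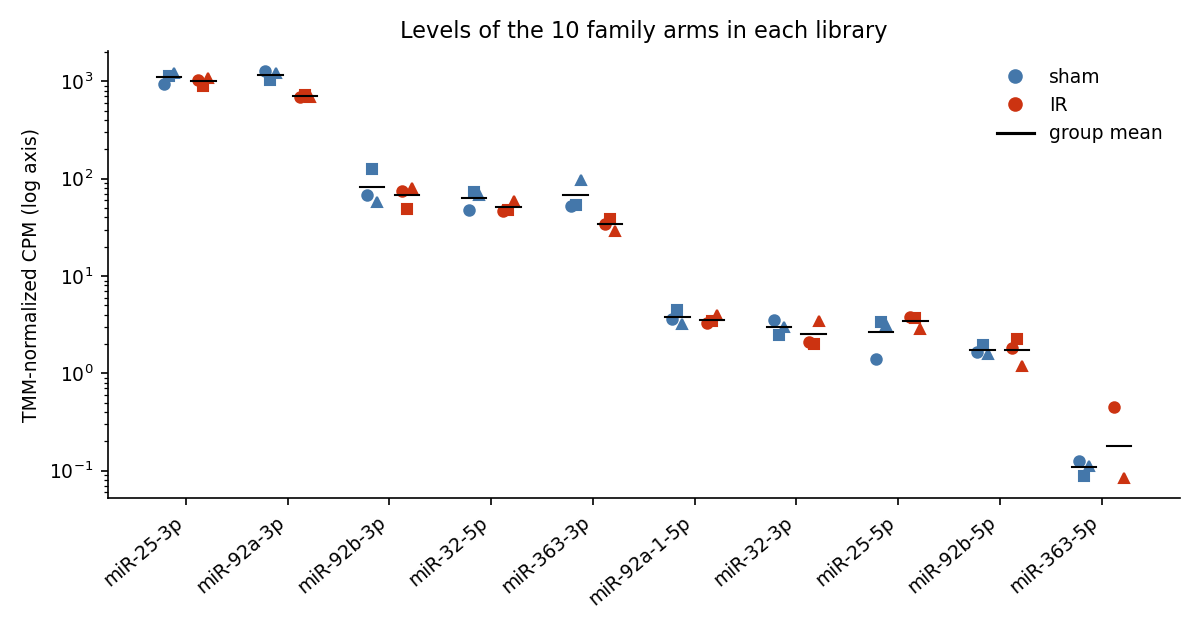
TMM-normalized CPM (vertical, log axis) of the 10 family arms in each of the 3 sham (blue) and 3 IR (red) libraries, with circles, squares and triangles for replicates 1, 2 and 3 and a bar at the group mean; miR-363-5p had 0 reads in IR replicate 2, which a log axis cannot show. The IR points of miR-92a-3p (695 to 733) and miR-363-3p (28.9 to 38.8) lie below all sham points, while the other arms overlap.

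miR-92a-3p was lower after IR. It was read at 1276, 1030 and 1212 CPM in sham replicates 1, 2 and 3 and at 699, 733 and 695 CPM in IR replicates 1, 2 and 3. Every IR library lay below every sham library, and the IR libraries were close together. The mean went from 1172 ± 128 to 709 ± 20.6 CPM (SD, n = 3 each), 1.65-fold lower. The log2 fold change was -0.73 (95% interval -1.03 to -0.42, standard error 0.13, adjusted p = 0.0203 by edgeR). It was the only called arm of the family under this test and ranked 11 of 418 by p. The call was lost without IR replicate 1 (log2 fold change -0.75, adjusted p = 0.0511 by edgeR) and without IR replicate 3 (-0.67, 0.0777). Over all tested miRNAs these fits called only 1 of 444 and 0 of 410 lower. The call of miR-92a-3p was kept when each of the other 4 libraries was left out in turn, at -0.71 and 0.0485 without sham replicate 3.

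miR-25-3p, its closest relative in level, did not pass the test. Its levels were 941, 1146 and 1215 CPM in sham and 1034, 896 and 1090 CPM after IR in replicates 1, 2 and 3, and the groups overlapped. The log2 fold change was -0.13 (95% interval -0.47 to 0.21, adjusted p = 0.597 from edgeR), an interval that leaves room for a fall of up to 0.47 on the log2 scale.

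miR-363-3p had the largest log2 fold change in size of the 9 tested arms but was not called. It was read at 52.5, 53.3 and 96.8 CPM in sham and at 34.4, 38.8 and 28.9 CPM after IR. All IR libraries lay below all sham libraries, and sham replicate 3, the library rich in miR-21-5p, was far above the other sham libraries. The log2 fold change was -0.99 (95% interval -1.65 to -0.34, standard error 0.28, adjusted p = 0.0647 by edgeR). It was -0.65 with an adjusted p of 0.140 from edgeR when sham replicate 3 was left out. Of 16 other fits, 8 called it lower, which were 2 of the 6 with a library left out and 6 of the 10 others. The latter included DESeq2 (adjusted p = 0.0112) and edgeR's likelihood ratio test (0.0179), which called 69 of 505 and 66 of 418 miRNAs in all. With limma-voom miR-363-3p was not called (adjusted p = 0.0707). Its adjusted p ran from 0.0112 to 0.200 over the 16 fits.

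miR-92b-3p and miR-32-5p did not pass the test. miR-92b-3p stood at 67.4, 125 and 57.2 CPM in sham and 74.1, 48.7 and 81.1 after IR, so that the spread within a group was as wide as any difference between them (log2 fold change -0.29, 95% interval -1.05 to 0.47). Its log2 fold change was 0.15 without sham replicate 2, which was the highest library. miR-32-5p stood at 47.4, 73.2 and 68.8 CPM in sham and 46.5, 47.6 and 58.7 after IR, and the groups overlapped (log2 fold change -0.31, 95% interval -0.82 to 0.20). Their adjusted p from edgeR was 0.598 and 0.408.

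The opposite arms rest on few reads. miR-92a-1-5p, which can come only from the chromosome 15 gene of miR-92a, stood at 3.65, 4.43 and 3.25 CPM in sham and 3.32, 3.42 and 3.96 after IR, on 108 and 81 reads (log2 fold change -0.08, 95% interval -0.73 to 0.58). miR-32-3p was at -0.19, miR-25-5p at 0.35 and miR-92b-5p at -0.06 on the log2 scale, each with an interval that spans 0. miR-363-5p had too few reads for the test, with 3 in sham and 4 after IR, and the ratio of IR to sham, corrected for library totals, was 1.78 (95% exact interval 0.301 to 12.2). The deposited table lists miR-92a-1-5p but does not list miR-92a-2-5p, the opposite arm of the Mir92a2 hairpin.

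Of the 9 tested arms 1 was called lower and 0 were called higher by edgeR. Over all 418 tested miRNAs 11 were called lower (2.63%) and 44 in either direction (10.5%). For the higher direction the count of arms was also 0 at an unadjusted p under 0.05 and with limma-voom, limma-trend, DESeq2 and the likelihood ratio test of edgeR. In 2 of the 9 arms all IR libraries lay below all sham libraries, beside 70 of the 418 tested miRNAs (16.7%), so such a separation was not rare in these data. The 5 arms with the shared seed all passed the filter and all had a log2 fold change below 0, with a median of -0.31, while 214 of the 418 were below 0 and their median was -0.01. The 4 tested opposite arms had a median of -0.07.

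**Figure D2:**
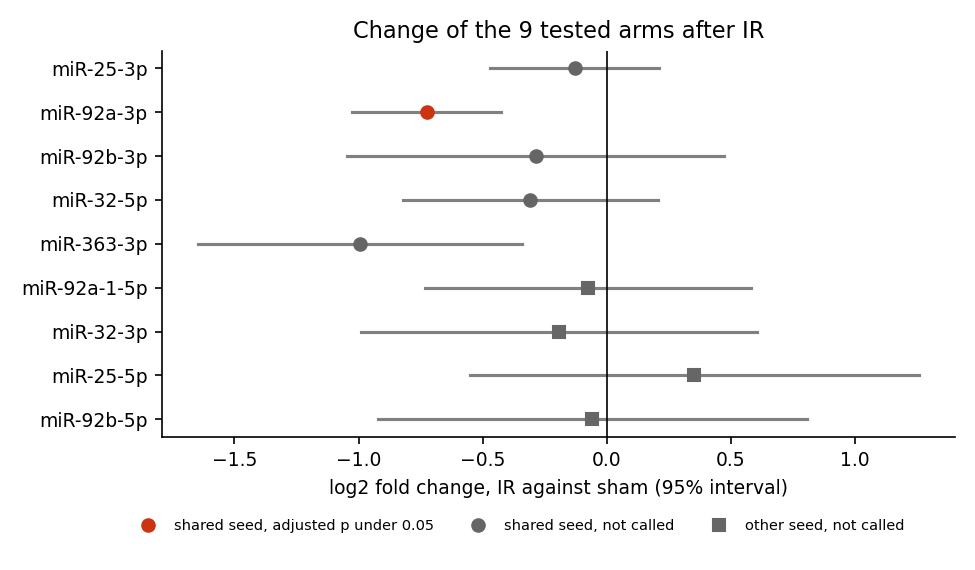
Log2 fold change between IR and sham on the horizontal axis, with its 95% interval, for the 9 tested arms, from 3 libraries per group; circles carry the shared seed, squares do not, and red marks an adjusted p under 0.05 from edgeR. miR-92a-3p (-0.73) is the called arm, miR-363-3p (-0.99) has a wide interval, and the intervals of the other 7 arms span 0.

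Since the 5 seed arms can act on the same sites, their levels were added. The sum was 2384, 2427 and 2650 CPM in sham and 1888, 1763 and 1954 CPM after IR. All IR libraries lay below all sham libraries, at a mean of 1868 ± 96.7 against 2487 ± 143 CPM (SD, n = 3 each), or 75.1% of sham. No test was made on this sum. The difference of the means, IR minus sham, was -619 CPM, of which miR-92a-3p made up -463 CPM (74.9%), miR-25-3p 15.3%, miR-363-3p 5.42%, miR-92b-3p 2.45% and miR-32-5p 1.97%. The make-up of the sum is likewise given without a test. miR-92a-3p and miR-25-3p hold most of the sum, so their shares largely mirror each other. miR-92a-3p was 47.2% ± 5.70 of the sum in sham and 38.1% ± 3.11 after IR, and miR-25-3p was 44.2% ± 4.15 and 53.8% ± 2.64 (SD, n = 3 each). Its share ran from 39.5% to 47.2% in sham and from 50.8% to 55.8% after IR, without overlap. The ranges of miR-92a-3p were 42.4% to 53.5% in sham and 35.6% to 41.6% after IR.

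**Figure D3:**
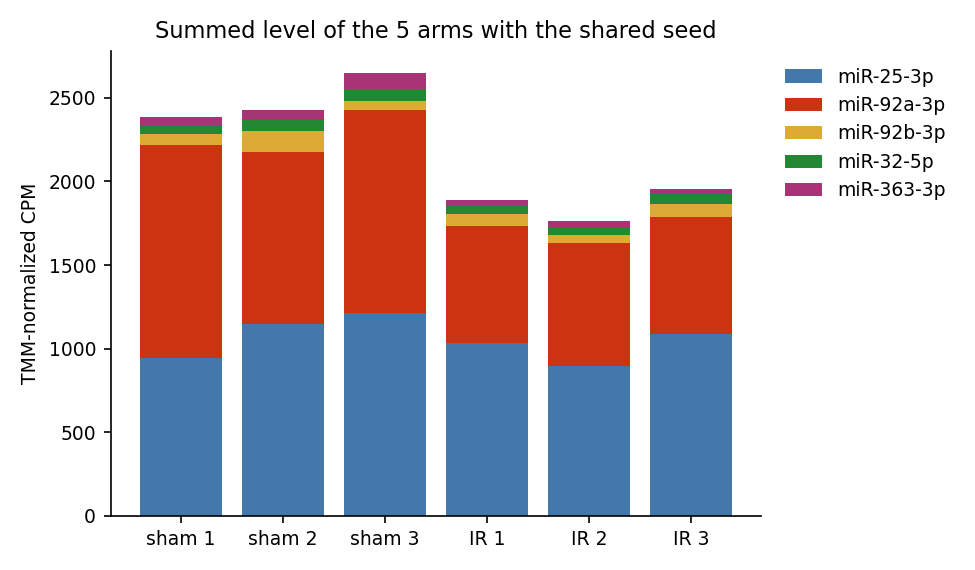
Stacked TMM-normalized CPM of the 5 arms with the shared seed in each library. The total is 2384 to 2650 in the sham libraries and 1763 to 1954 in the IR libraries, and the red miR-92a-3p segment is the part that differs most, while the blue miR-25-3p segment overlaps between groups.

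Ratios between arms within a library do not depend on how libraries are scaled, and they describe how an arm moved beside another. With 3 libraries against 3 the smallest p of an exact permutation test is 0.1, so no ratio could pass 0.05. Any complete separation of the groups gives this p, and how often ratios of other miRNAs separate was not tested. The ratio of miR-25-3p to miR-92a-3p reads was 0.737, 1.11 and 1.003 in sham and 1.48, 1.22 and 1.57 after IR, higher in each IR library than in each sham library. Its log2 value differed by 0.59 (from -0.09 ± 0.31 to 0.50 ± 0.19, SD, n = 3 each, exact permutation test, two-sided, p = 0.1, adjusted p = 0.5 over 10 pairs). The ratio of miR-25-3p to miR-363-3p was likewise higher in every IR library, at 23.0 to 37.7 against 12.6 to 21.5, a log2 difference of 0.81 (exact permutation test, two-sided, p = 0.1, adjusted p = 0.5 over 10 pairs). miR-92a-3p against miR-363-3p, which share a cluster on the X chromosome, gave 12.5 to 24.3 in sham and 18.8 to 24.0 after IR (log2 difference 0.22, exact permutation p = 0.7). The remaining 7 of the 10 pairs also overlapped between groups, with log2 differences from -0.48 to 0.70 and exact permutation p from 0.3 to 1.

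The arm with the seed dominated each hairpin. It took 99.6% to 99.9% of the reads of miR-25, 99.4% to 99.7% of miR-92a, 98.7% to 100% of miR-363, 95.5% to 98.6% of miR-92b and 93.1% to 96.7% of miR-32 over the 6 libraries. The ratio of miR-92a-3p to miR-92a-1-5p was 343, 230 and 367 in sham and 206, 206 and 174 after IR, lower in every IR library (log2 difference -0.66, exact permutation test, two-sided, p = 0.1, adjusted p = 0.4 over 4 hairpins). Since miR-92a-3p also has a gene on the X chromosome, this ratio sets the product of both genes against an arm of a single gene. The ratios for miR-25, miR-32 and miR-92b overlapped between groups, with log2 differences of -0.61, -0.03 and -0.24 and exact permutation p of 0.2, 0.8 and 0.8.

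**Figure D4:**
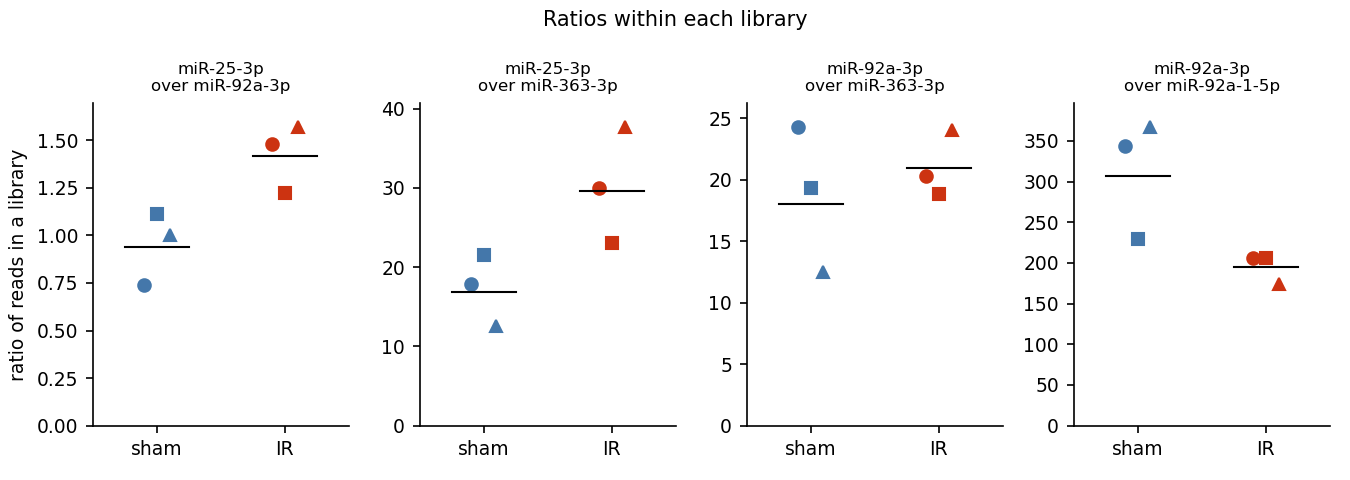
Ratio of reads of the arms named above each panel in each library (vertical axes, linear from 0), for 3 sham (blue) and 3 IR (red) libraries with circles, squares and triangles for replicates 1, 2 and 3 and a bar at the geometric mean. Sham and IR are separate for miR-25-3p over miR-92a-3p (0.737 to 1.11 against 1.22 to 1.57), for miR-25-3p over miR-363-3p and for miR-92a-3p over miR-92a-1-5p, and they overlap for miR-92a-3p over miR-363-3p.

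The genes of miR-92a, miR-363 and miR-25 are transcribed together with other miRNAs, and these cluster partners give a view of each cluster. The partners are the miR-17, miR-20, miR-93 and miR-106 group, which restrains cell cycle inhibitors, and the miR-18 and miR-19 groups. Of 17 listed partner names 14 were tested, 2 were called lower and 0 higher, beside 11 of all 418 tested miRNAs called lower (2.63%). 13 of the 14 had a log2 fold change below 0, with a median of -0.72, beside 214 of the 418 and a median of -0.01. No tool run called a partner higher either, nor did an unadjusted p under 0.05 from edgeR, so that count was 0 with DESeq2, limma-voom and limma-trend too. The called partners were miR-18a-5p (log2 fold change -1.54, adjusted p = 0.0229 from edgeR) and miR-17-1-3p (-1.09, adjusted p = 0.0471), both encoded in the miR-17-92 cluster alone. The study itself chose miR-18a-5p and miR-20b-5p from its sequencing for qPCR, so these are not independent of its choice. Its qPCR in IR and sham lung found miR-18a-5p lower and no significant change of miR-20b-5p. The same was reported for alveolar cells after hypoxia and reoxygenation. With 1 library left out, 0 partners were called when it was IR replicate 1, IR replicate 3 or sham replicate 3. The count was 1 without sham replicate 1 or IR replicate 2, and 3 without sham replicate 2. Lower calls over all tested miRNAs were 1 of 444, 0 of 410 and 4 of 420 in the fits with 0 partners. They were 13 of 450, 5 of 436 and 17 of 420 in the others, in the order named.
Within the miR-17-92 cluster miR-92a-3p, at -0.73, was the third called arm beside miR-18a-5p and miR-17-1-3p. miR-18a-3p (-1.39, adjusted p = 0.0761 from edgeR, all IR libraries below all sham libraries), miR-20a-5p (-0.73) and miR-17-5p (-0.72) did not pass the test. The opposite arm miR-92a-1-5p was at -0.08, and miR-19a-3p and miR-19b-3p were at -0.38 and 0.06 with intervals that span 0. miR-17-5p and miR-19b-3p, like miR-92a-3p, have a gene in both the chromosome 15 and the X chromosome clusters.
miR-363-3p, at -0.99, stood among the partners found on the X chromosome alone, which were miR-20b-5p at -1.48, miR-20b-3p at -1.14 and miR-17-2-3p at -0.73, of which 0 of 3 were called by the test. All IR libraries of both miR-20b arms lay below all sham libraries. At an unadjusted p under 0.05 from edgeR both miR-20b arms passed (0.00942 and 0.0144). DESeq2 called 1 of the 3, edgeR's likelihood ratio test 2, limma-trend 1 and limma-voom 0. Over all tested miRNAs 51 of 418 were lower at that unadjusted p, and DESeq2 called 26 of 505 lower. The likelihood ratio test called 24 of 418 lower, limma-trend 12 and limma-voom 7.
miR-25-3p, at -0.13, stood with the partners of the miR-106b-25 cluster, miR-93-5p at -0.18, miR-106b-5p at -0.35, miR-106b-3p at -0.33 and miR-93-3p at -0.70, of which 0 of 4 were called by edgeR, DESeq2, limma-voom or limma-trend and 0 of 4 had an unadjusted p under 0.05. The arms of miR-106b still lay below sham in every IR library, at 103 to 130 against 143 to 155 CPM for miR-106b-5p. Whether the clusters differ from each other in their change was not tested.

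**Figure D5:**
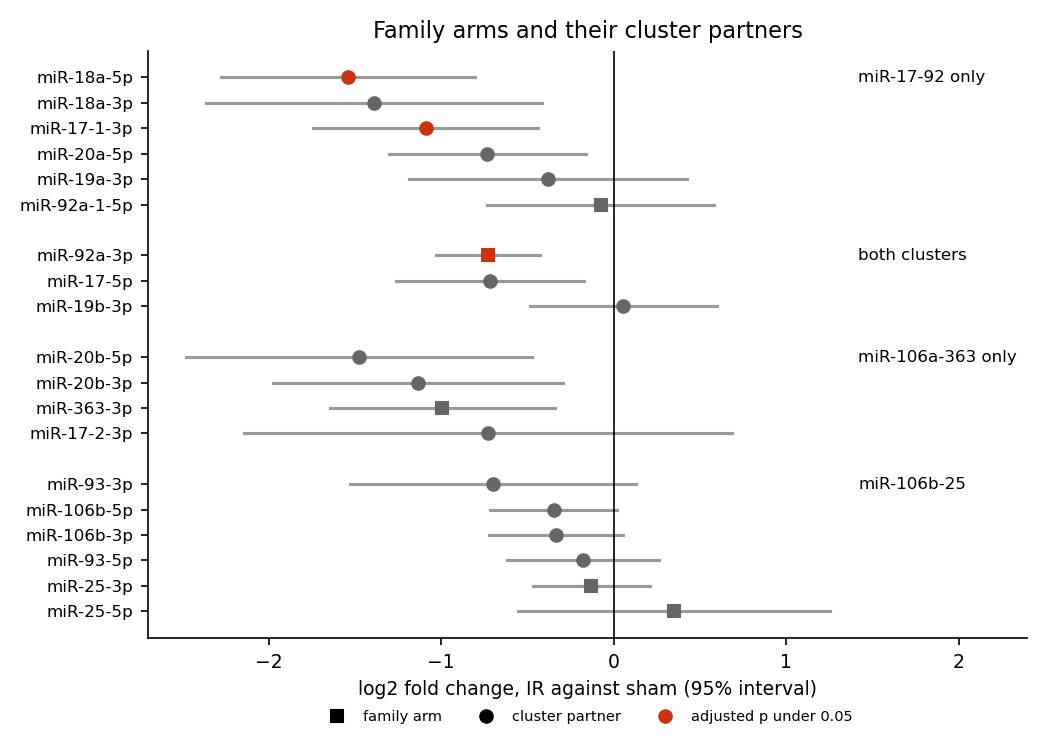
Log2 fold change between IR and sham on the horizontal axis, with its 95% interval, for tested arms of the family (squares) and their cluster partners (circles), grouped by the gene cluster that encodes them; red marks an adjusted p under 0.05 from edgeR, n = 3 libraries per group. The called arms are miR-92a-3p (-0.73), miR-17-1-3p (-1.09) and miR-18a-5p (-1.54), and in the miR-106b-25 cluster the values run from -0.70 for miR-93-3p to 0.35 for miR-25-5p, with every interval spanning 0.

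Markers of cell types were read beside these values, and edgeR called miR-150-5p lower and miR-1-3p higher among them. The lung was represented by endothelial miR-126a (2 of 2 markers listed, summed level 88060 to 111200 CPM in sham and 83150 to 105400 after IR) and by the epithelial miR-200 family (5 of 5 listed), whose sum was 12890 to 15880 CPM in sham and 18670 to 19220 after IR, without overlap. Of its 5 markers 0 were called by edgeR or limma-voom, 1 by DESeq2 or limma-trend, and 2 had an unadjusted p under 0.05. Over all tested miRNAs, edgeR called 44 of 418 in either direction, limma-voom 40 of 418, DESeq2 69 of 505 and limma-trend 50 of 418. An unadjusted p under 0.05 was held by 110 of 418, 51 of them lower and 59 higher. Of the epithelial markers, miR-200a-3p (log2 fold change 0.34) and miR-200b-3p (0.55) were separate between groups, and miR-200c-3p, miR-429 and miR-141-3p overlapped. Myeloid and leukocyte markers (3 of 3 listed) summed to 1678 to 2763 CPM in sham and 1267 to 1543 after IR, without overlap (0 of 3 called by edgeR or limma-voom, 1 by DESeq2 or limma-trend, 2 at an unadjusted p under 0.05). Taken singly, miR-142-3p was separate between groups, while miR-223-3p and miR-142-5p overlapped. The lymphocyte marker miR-150-5p was at 1378 to 1502 CPM in sham and 694 to 935 after IR, a called fall with a log2 fold change of -0.77 (adjusted p = 0.0229 from edgeR). Its call was lost without sham replicate 3 (-0.75, adjusted p = 0.0592 from edgeR), without IR replicate 3 (-0.79, 0.0777) and with the replicate number as a block (-0.78, 0.0918). Over all tested miRNAs these fits called 4 of 420, 0 of 410 and 0 of 418 lower. Erythroid markers, of interest because miR-92a is abundant in red blood cells, summed to 1233 to 4048 CPM in sham and 1493 to 2155 after IR (4 of 4 listed, 0 called by edgeR, DESeq2, limma-voom or limma-trend, 2 at an unadjusted p under 0.05). All 4 had a log2 fold change below 0, with a median of -0.93. Their sum overlapped between groups and was highest in sham replicate 3, where miR-363-3p was also highest, and lowest in sham replicate 1. Without sham replicate 1, edgeR called 3 of the 4 lower, which were miR-144-3p (-1.76, adjusted p = 0.0121 from edgeR), miR-144-5p (-1.13, 0.0427) and miR-486 (-1.46, 0.0164). Without sham replicate 3, edgeR called 0 of the 4, and miR-451-5p was then at 0.38. Over all tested miRNAs these 2 fits called 13 of 450 and 4 of 420 lower. Smooth muscle markers overlapped between groups, at 133200 to 162600 and 140600 to 160600 CPM. Striated muscle markers summed to 41.9 to 60.0 and 57.7 to 73.0 CPM, with miR-1-3p called higher (1.31, adjusted p = 0.0138 from edgeR) while miR-133a-3p was at -0.01 and miR-206-3p at -0.47. The call of miR-1-3p was lost without IR replicate 3 (1.37, adjusted p = 0.0700 from edgeR) and with the block (1.32, 0.0692). Over all tested miRNAs these fits called 2 of 410 and 0 of 418 higher. Liver miR-122-5p was at 0.621 to 6.61 and 5.42 to 9.21 CPM. The part of these cells in the lower miR-92a-3p was not tested.

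Across the 6 libraries, the pattern of each seed arm was compared with that of every other tested miRNA by Pearson's r on log2(CPM + 1), given as a description since the libraries share their groups and scaling. The miRNAs named as most like an arm were picked for the highest r outside the family. With only 6 libraries, high values follow in part from this choice. miR-92a-3p was most like miR-15b-5p (r = 0.975), miR-146a-5p (0.974) and miR-130b-3p (0.970), of which the first and second were called lower after IR. miR-363-3p was most like the leukocyte miR-142-3p (r = 0.984), miR-339-5p (0.981) and miR-3596a (0.960). miR-25-3p was most like miR-191b (0.973), miR-191a-3p (0.966) and miR-339-3p (0.964). miR-32-5p was most like miR-872-3p (0.994), the erythroid miR-144-3p (0.964) and miR-872-5p (0.958), and miR-92b-3p was most like miR-34c-3p (0.959), miR-547-3p (0.955) and miR-3585-3p (0.944). Among the seed arms themselves r was highest between miR-25-3p and miR-32-5p (0.867) and between miR-92a-3p and miR-363-3p (0.847). It was 0.267 between miR-92a-3p and miR-25-3p, the abundant arms, and 0.055 between miR-92a-3p and miR-92b-3p, the closest in sequence (n = 6 libraries each).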

How the data were processed

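For each miRNA the authors deposited a whole read count in every library, and beside it a TPM value that equals the count per 1000000 listed reads of the library with no length term. The submitters' processing notes name Bowtie. The sources used here state no build, annotation, counting tool or rule for multiply mapped reads. Groups were taken from the sample titles. Counts were filtered with filterByExpr (minimum count 10, minimum total 15), scaled by TMM (factors 0.867 to 1.06) and tested with the quasi-likelihood test of edgeR 4.0.16 in R 4.3.3, without a block. The standard error is the log2 fold change divided by the square root of F. Ratios used counts plus 0.5, for all pairs of seed arms and for hairpins with at least 5 mean reads in each arm, and an exact two-sided permutation test. limma 3.58.1 and DESeq2 1.42.0 served as alternatives, and figures were drawn with matplotlib 3.10.9 in Python 3.11.15. The tests were tried on simulated data. The miRNAs named are all members, their cluster partners, the markers of the cell type lists, miR-21-5p and the 3 miRNAs most like each seed arm. Members, lists and tests were chosen with earlier results of these data known. Sequences and gene places are from RefSeq (GRCr8), which matched 570 of the 693 listed names.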

Additional observations from a re-analysis of the deposited data

How the results depend on the processing

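The log2 fold change of miR-92a-3p stayed between -0.80 and -0.67 over 16 alternative fits and passed in 13 of them. With the replicate number as a block it was -0.72 with an adjusted p of 0.0918 from edgeR, and the block fit called 0 of 418 miRNAs, 0 family arms and 0 partners. Deviations from the group mean were negatively correlated between same-numbered sham and IR libraries (r = -0.234, -0.387 and -0.183 over the tested miRNAs). The sample titles do not say how replicates were numbered, and whether same-numbered libraries share a batch was not tested. Sham and IR libraries with the same number did not correlate best with each other in any of the 3 cases. With libraries paired by number, the mean log2 ratio difference equals the unpaired one by construction, so its direction could not change. An exact two-sided test that flips the sign of each pair gave p from 0.25 to 1, where 0.25 is the smallest that 3 pairs allow.
The number of family arms called lower, 1 of 9, was 2 with library totals, with library totals without miR-21-5p, with no filter, with DESeq2, with edgeR's likelihood ratio test, with limma-trend and at an unadjusted p, the added arm being miR-363-3p. It was 0 to 2 with 1 library left out. Partners called lower, 2 of 14, numbered 5 with library totals without miR-21-5p and with the likelihood ratio test, 7 at an unadjusted p, 3 with DESeq2, 1 with 10 reads required in every library and with limma-voom, and 0 to 3 with 1 library left out. All miRNAs called in either direction, 44 of 418, became 26 of 341 with 10 reads in every library. They numbered 69 of 505 with DESeq2, 110 of 418 at an unadjusted p, and 2 to 57 with 1 library left out. Those called lower were 11 of 418 by the first test and with library totals, and 21 with library totals without miR-21-5p. They were 24 with the likelihood ratio test, 12 with limma-trend, 7 with limma-voom and 51 at an unadjusted p. Lower calls were 26 of 505 with DESeq2, 12 of 693 with no filter and 7 of 341 with 10 reads required. With 1 library left out they ran from 0 to 17. The difference in summed seed level ran from -670 to -537 CPM with 1 library left out and was -567 CPM on library totals.
Directions of values that were not called changed in a few cases. miR-92b-5p was at 0.014 with limma-trend. With 1 library left out, the log2 fold change ran from -0.18 to 0.085 for miR-92a-1-5p, from -0.50 to 0.15 for miR-92b-3p and from -0.25 to 0.27 for miR-92b-5p. The log2 ratio difference then ran from -0.19 to 0.41 for miR-25-3p over miR-92b-3p, from -0.048 to 0.43 for miR-92a-3p over miR-363-3p, from -0.25 to 0.27 for miR-92b-3p over miR-32-5p, from -0.35 to 0.22 for miR-32-5p over miR-32-3p and from -0.66 to 0.20 for miR-92b-3p over miR-92b-5p. The cause of these changes was not tested. Of the 3 miRNAs most like each arm, 1 was kept for miR-25-3p on log2(TPM + 1), 1 for miR-92a-3p with Spearman's rho, and 0 and 1 for miR-32-5p under these settings. The opposite arms, with at most 108 reads a group, could show only large changes.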
